A study of Sus scrofa with 8 samples.

Results

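Anterior foregut endoderm (AFE) cells derived from pig (Sus scrofa) pluripotent stem cells (PSC) were compared with those stem cells across every gene of the deposited table, to show what the net change over the steps from pluripotency was and which genes ended where they had begun. The study sequenced polyadenylated RNA of 4 stages, AFE, PSC, the definitive endoderm (DE) that lies between them, and lung progenitor organoids, with 2 libraries per stage. The comparison used the 2 AFE and the 2 PSC libraries, 4 of the 8, and took the 2 DE libraries in where a gene's path was followed. The labels name each stage and give no strain, animal, cell line, medium, inducing factor or day of culture, and nothing in them says that replicate libraries were grown apart, so a p-value reflects no more than the scatter of these samples, which may be technical. Of 25578 genes in the table, 19346 had enough counts to be tested. Total counts were 67566269 and 66608214 in the AFE libraries and 42251431 and 36004372 in the PSC libraries, at about 4 counts per read pair.

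Pluripotent cells can form all tissues of the body and are held in that state by a circuit of transcription factors led by POU5F1, NANOG and SOX2. Under NODAL signalling they turn into definitive endoderm, the layer that lines the gut and its outgrowths, and the front of the gut tube, the anterior foregut, then gives rise to pharynx, thyroid, oesophagus, trachea and lung. Position along the gut tube is set by gradients of retinoic acid, WNT, FGF and BMP signals and is recorded in the HOX clusters, whose genes at one end mark the front of the body axis and at the other the tail.

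Most of the tested genes differed between AFE and PSC. A gene was called when its Benjamini-Hochberg adjusted p from edgeR's quasi-likelihood test, fitted over all genes, was under 0.05. Of the 19346 genes, 10990 (56.8%) were called, 6354 (32.8%) higher and 4636 (24.0%) lower in AFE. The shares of 32.8% and 24.0% are the background for each list count below. Changes of 2-fold or more were called upward for 4871 genes (25.2%) and downward for 2420 (12.5%). Fitted changes of 10-fold or more numbered 1731 upward and 618 downward among the called genes. Protein-coding genes made up 16127 of those tested, with 5731 higher and 4302 lower, and long noncoding RNAs 2851, with 569 higher and 250 lower. The median log2 change over all genes was 0.18 with the scaling used (TMM), 0.01 with DESeq2's size factors and -0.06 with centring on the median gene, so small changes depend on the scaling. Centring on the median gene gave 5123 genes higher and 6257 lower, in place of 6354 and 4636. In bulk RNA, fewer cells of a type and less RNA per cell cannot be told apart.

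The genes used to check the labels followed the stage names. POU5F1, the homeodomain factor that defines pluripotent cells, had 1.03 and 0.800 CPM in AFE, against 4452 and 5156 CPM in PSC (CPM, TMM-scaled read counts relative to library size; log2 change -12.35, SE 0.23, adjusted p = 5.56e-08). FOXA1, a pioneer factor of endoderm that opens chromatin, had 59.6 and 53.8 CPM in AFE, against 3.20 and 2.52 CPM in PSC (log2 change 4.30, SE 0.14, adjusted p = 4.08e-07). NKX2-1, which marks the lung and thyroid fields of the foregut, had 20.2 and 19.5 CPM in AFE, against 0 and 0 CPM in PSC, and it was at 0 in both DE libraries too. HOXB2, an anterior HOX gene, had 121 and 86.4 CPM in AFE, against 0 and 0 CPM in PSC. The AFE and PSC libraries did not overlap for these 4 genes, as for 14787 (76.4%) of all tested genes. Against a floor of 3 read pairs per PSC library, NKX2-1 was at least 60.7-fold and HOXB2 at least 318-fold higher in AFE (adjusted p = 2.99e-06 and 1.02e-06). In the deposited coordinates (genome build not given in these sources), POU5F1 (ENSSSCG00000001393) spans chromosome 7 from 23564659 to 23570600, FOXA1 (ENSSSCG00000037634) chromosome 7 from 62471249 to 62479220, NKX2-1 (ENSSSCG00000001945) chromosome 7 from 63487807 to 63491575 and HOXB2 (ENSSSCG00000017533) chromosome 12 from 24797225 to 24799303.

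**Figure D1:**
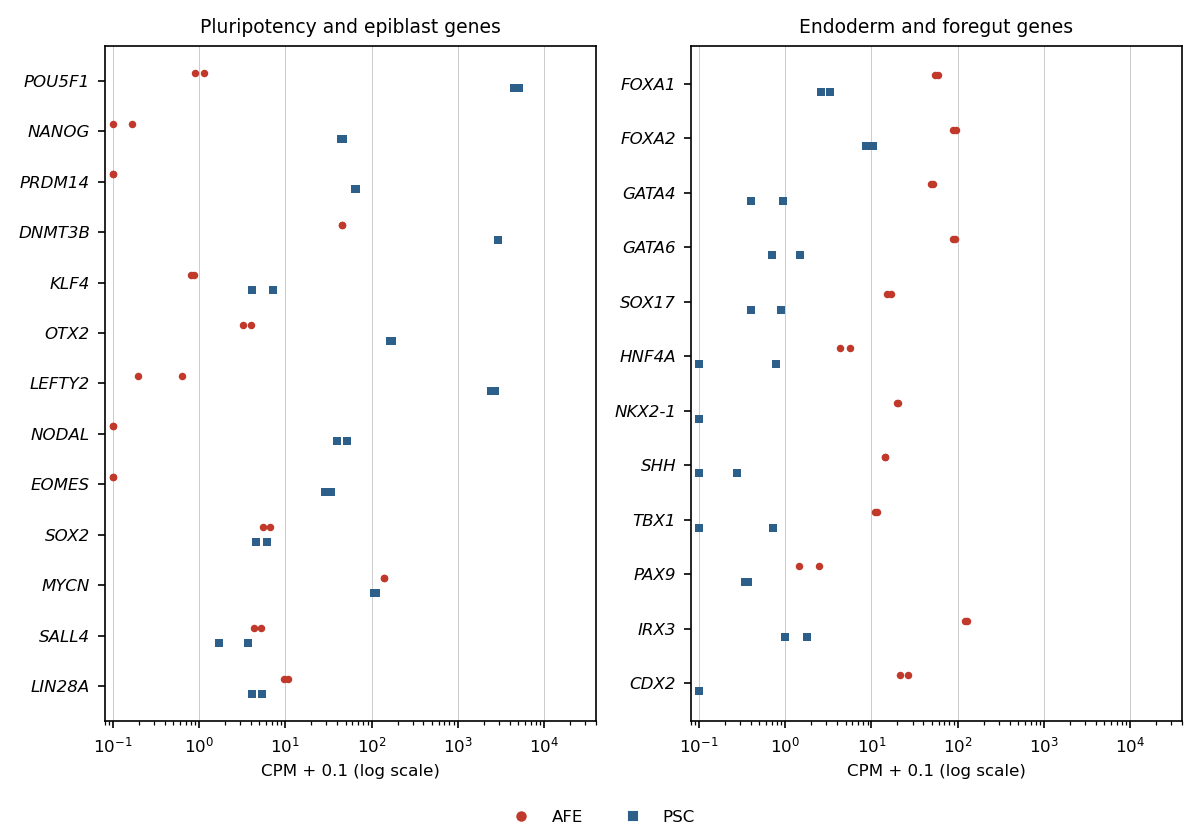
Levels of pluripotency and epiblast genes (left) and of endoderm and foregut genes (right) in each library, as TMM-scaled CPM plus 0.1 on a log axis. Red circles are the 2 AFE libraries and blue squares the 2 PSC libraries. POU5F1 lies at 1.03 and 0.800 CPM in AFE and 4452 and 5156 CPM in PSC, SOX2 overlaps between the stages, and NKX2-1 and CDX2 are at 0 in PSC.

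Much of the pluripotency circuit was lower in AFE, but not all of it. Of 21 regulators tested, 11 fell, 5 rose and 5 were not called, where 24.0% of all genes fell and 32.8% rose, with a median log2 change of -1.01 against 0.18 over all genes; 7 fell when AFE replicate 2 was left out. PRDM14, a repressor that guards the pluripotent state, was at 0 in both AFE libraries, against 64.8 and 66.4 CPM in the PSC libraries, and so at least 331-fold lower. NANOG had 0.0653 and 0 CPM in AFE, against 46.0 and 44.1 CPM in PSC. Its ratio rests on 1 read pair in AFE and came to 1367-fold lower (95% counting interval 245 to 54069), with a fitted log2 change of -14.36 without AFE replicate 1 and -9.38 without AFE replicate 2. OTX2, an epiblast and head organiser factor, fell to 3.92 and 3.17 CPM in AFE, against 164 and 175 CPM in PSC (log2 change -5.58, SE 0.24, adjusted p = 3.50e-06). KLF4, a factor used in reprogramming, had 0.767 and 0.700 CPM in AFE, against 4.02 and 7.04 CPM in PSC (log2 change -2.91, SE 0.34, adjusted p = 0.000173).

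Other members of the circuit were not called lower. SOX2 had 5.35 and 6.602 CPM in AFE, against 6.10 and 4.43 CPM in PSC, and the libraries of the stages overlapped (log2 change 0.18, 95% interval -0.32 to 0.68, adjusted p = 0.508). MYCN, a growth-promoting factor of stem cells, had 139 and 140.1 CPM in AFE, against 112 and 106 CPM in PSC (log2 change 0.36, adjusted p = 0.0512), and it was called higher with a filter of 5 FPKM, with counts divided by 4 and in a fit of the compared libraries alone (adjusted p = 0.0321, 0.0318 and 0.012). SALL4 had 4.18 and 5.07 CPM in AFE, against 3.596 and 1.60 CPM in PSC (log2 change 0.82, adjusted p = 0.0697), and without PSC replicate 1 it was called at 1.53. LIN28A, an RNA-binding protein that blocks let-7 maturation, rose to 10.5 and 9.44 CPM in AFE, against 3.97 and 5.23 CPM in PSC (log2 change 1.12, SE 0.23, adjusted p = 0.00359). TBX3, a T-box factor also used in foregut, had 10.9 and 9.32 CPM in AFE, against 0.347 and 0.119 CPM in PSC (log2 change 5.37, SE 0.28, adjusted p = 2.83e-06), and its log2 change was 6.39 without PSC replicate 1.

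Among genes of DNA methylation and early embryo chromatin, DNMT3A, DNMT3B and DNMT3L fell, and DNMT1 and UHRF1, which keep methylation through replication, rose. Of 11 tested, 6 fell and 3 rose. The other called members were TET1, TDG and JARID2, all lower, and KDM4C, higher. EZH2 and TET3 were not called. DNMT3B, the enzyme that sets new methylation in the early embryo, had 45.8 and 45.0 CPM in AFE, against 2896 and 2957 CPM in PSC (log2 change -6.01, SE 0.08, adjusted p = 2.25e-08). TET1, which oxidises methylcytosine, had 28.0 and 27.4 CPM in AFE, against 48.0 and 49.4 CPM in PSC, and JARID2, a partner of the Polycomb complex, had 32.2 and 32.0 CPM in AFE, against 116 and 114 CPM in PSC. UHRF1, which brings the maintenance enzyme to newly copied DNA, rose to 147 and 152 CPM in AFE, against 70.2 and 56.4 CPM in PSC (log2 change 1.24, SE 0.11, adjusted p = 3.45e-05), and the maintenance enzyme DNMT1 rose to 114 and 116 CPM in AFE, against 71.1 and 58.3 CPM in PSC. The fall of DNMT3B was larger than that of any other called member of the list.

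The genes with the deepest falls included the NODAL system. Of 16 NODAL and TGF-beta genes tested, 8 fell and 5 rose, with a median log2 change of -0.54. LEFTY2, the secreted NODAL inhibitor, had 0.0979 and 0.533 CPM in AFE, against 2460.2 and 2693 CPM in PSC. Its log2 change was -12.99 (SE 0.39, adjusted p = 3.21e-07), -12.23 without AFE replicate 1 and -14.65 without AFE replicate 2. NODAL itself was at 0 in AFE, against 51.5 and 39.4 CPM in PSC, or at least 229.6-fold lower. An unnamed gene on the opposite strand that overlaps NODAL carries 3.55 times its counts, and the strand setting of the counting is not stated. EOMES, a T-box factor that NODAL induces, was at 0 in AFE, against 28.8 and 34.0 CPM in PSC. Other members rose. The transducer SMAD3 had 62.9 and 58.9 CPM in AFE, against 11.95 and 10.9 CPM in PSC (log2 change 2.41, SE 0.10, adjusted p = 9.16e-07). The ligand TGFB1 had 44.5 and 46.2 CPM in AFE, against 1.39 and 2.61 CPM in PSC (log2 change 4.52, SE 0.27, adjusted p = 4.82e-06).

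By the rule that took the largest fitted log2 falls among genes above 5 FPKM, the others were ELAVL3, TNFSF11, PCDH8, CDX4 and RSPO1. All 5 were at 0 in both AFE libraries. For such genes the fitted change runs far beyond the bound, so the rule favours them. FST, which the rule left out, was 191-fold lower by the fit, against a bound of at least 84.3-fold for RSPO1. TNFSF11, the cytokine RANKL, had 52.7 and 52.3 CPM in PSC, the protocadherin PCDH8 43.6 and 52.8 CPM, and RSPO1, a secreted amplifier of WNT signals, 17.0 and 16.4 CPM. The corresponding bounds were at least 265-fold, at least 244-fold and at least 84.3-fold lower in AFE. Markers of the neural lineage moved in both directions. Of 16 tested, 5 fell and 4 rose (median log2 change 0), close to the shares over all genes, and PAX6, SOX1 and NEUROG2 were among those at 0 in both stages. Summed levels were 404 and 391 CPM in AFE, against 954 and 911 CPM in PSC, and the part of neural cells in these values was not tested. TUBB3, a neuronal tubulin, had 8.36 and 8.62 CPM in AFE, against 306 and 273 CPM in PSC (log2 change -5.09, SE 0.13, adjusted p = 1.79e-07). STMN2 had 0.245 and 0.183 CPM in AFE, against 51.0 and 52.5 CPM in PSC, and ZIC2, a zinc finger factor of epiblast and neural plate, 3.35 and 2.43 CPM in AFE, against 201 and 217 CPM in PSC. Both fell (adjusted p = 1.10e-07 and 2.86e-07). The 4 that rose were FABP7, MAP2, NCAM1 and ZIC1. MAP2, a microtubule protein of neurons, had 70.9 and 68.7 CPM in AFE, against 14.4 and 11.1 CPM in PSC (log2 change 2.45, SE 0.21, adjusted p = 3.18e-05), and NCAM1, a neural cell adhesion protein, 51.7 and 45.2 CPM in AFE, against 5.38 and 6.0003 CPM in PSC (log2 change 3.09, SE 0.23, adjusted p = 1.73e-05).

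Ligands, receptors and targets of the FGF pathway were among the falls. Of 25 genes tested, 14 fell and 6 rose, with a median log2 change of -1.03. Those that rose were DUSP5, FGF2, FGF9, FGF10, FGFR3 and SPRED2. The FGFR3 rise was small (log2 change 0.37, adjusted p = 0.0337), and its call ended under either other scaling. The ligand FGF17 had 0.457 and 0.317 CPM in AFE, against 20.4 and 26.3 CPM in PSC (log2 change -5.91, SE 0.35, adjusted p = 5.03e-06), and FGF19 had 5.97 and 7.39 CPM in AFE, against 53.2 and 43.0 CPM in PSC. The receptor FGFR4 fell to 3.67 and 3.87 CPM in AFE, against 20.7 and 20.5 CPM in PSC, as did FGFR2, to 57.9 and 58.4 CPM in AFE, against 93.0 and 100.1 CPM in PSC. The ETS factor ETV5, a target that reads out ERK activity, had 7.62 and 6.502 CPM in AFE, against 99.8 and 107 CPM in PSC (log2 change -3.87, SE 0.12, adjusted p = 3.38e-07), and ETV4 had 15.5 and 14.7 CPM in AFE, against 155 and 108 CPM in PSC. DUSP6, a phosphatase that ERK induces against itself, had 16.2 and 12.5 CPM in AFE, against 49.8 and 51.6 CPM in PSC (log2 change -1.82, SE 0.16, adjusted p = 4.22e-05).

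On the rising side stood the endoderm factors. Of 24 tested, 14 rose and 5 fell, with a median log2 change of 3.62, or 1.77 with genes at 0 in a stage set to their bound (0 for all genes). FOXA2 had 96.8 and 87.1 CPM in AFE, against 8.63 and 10.2 CPM in PSC (log2 change 3.29, SE 0.11, adjusted p = 4.22e-07), and GATA5 47.1 and 41.3 CPM in AFE, against 0.694 and 0.921 CPM in PSC (log2 change 5.78, SE 0.20, adjusted p = 5.52e-07). GATA4, a zinc finger factor of gut and heart, had 52.1 and 48.5 CPM in AFE, against 0.298 and 0.832 CPM in PSC, with a log2 change of 6.52 (SE 0.25), 5.91 without PSC replicate 1 and 7.39 without PSC replicate 2. GATA6 had 88.9 and 93.9 CPM in AFE, against 1.39 and 0.594 CPM in PSC, with 6.49 (SE 0.26) and 7.26 without PSC replicate 1. SOX17, which defines early endoderm, had 16.5 and 15.0 CPM in AFE, against 0.298 and 0.802 CPM in PSC, with 4.89 (SE 0.31), 4.30 without PSC replicate 1 and 5.72 without PSC replicate 2. Mean levels in DE were 507 CPM for GATA4, 124 CPM for GATA6 and 239 CPM for SOX17, above each of their AFE and PSC values.

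Several endoderm genes rested on few reads or on shared ones. HNF4A had 5.597 and 4.18 CPM in AFE, against 0 and 0.683 CPM in PSC, a log2 change of 3.95 (adjusted p = 0.001) that was 2.84 without PSC replicate 1 and 11.25 without PSC replicate 2, where the remaining PSC library is at 0. HHEX had 2.77 and 2.43 CPM in AFE, against 1.29 and 1.66 CPM in PSC; it was called at an adjusted p of 0.0463, and the call ended when any of the 4 libraries was left out (log2 changes 0.65 to 1.01). FOXA3 had 12.1 and 12.2 CPM in AFE, against 18.6 and 14.5 CPM in PSC (adjusted p = 0.037), a call that ended without AFE replicate 1, AFE replicate 2 or PSC replicate 1 (log2 changes -0.45, -0.46 and -0.26), and the overlapping gene SYMPK holds 9.67 times its counts.

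Surface and secreted markers of endoderm split evenly, 4 higher and 4 lower among 10 tested, where 32.8% of all genes were higher and 24.0% lower. CXCR4, the chemokine receptor by which definitive endoderm is sorted, had 35.6 and 34.0 CPM in AFE, against 12.2 and 13.6 CPM in PSC (log2 change 1.43, SE 0.18, adjusted p = 0.000265). FLRT3, an adhesion protein, had 16.9 and 22.0 CPM in AFE, against 5.23 and 3.71 CPM in PSC. KIT, a receptor tyrosine kinase, fell to 31.0 and 27.6 CPM in AFE, against 139 and 161 CPM in PSC, and the tight junction protein CLDN6 to 419 and 428 CPM in AFE, against 1313 and 1471 CPM in PSC (adjusted p = 2.82e-06 and 3.53e-06). EPCAM had 526 and 474 CPM in AFE, against 388 and 402 CPM in PSC, a log2 change of 0.34 (adjusted p = 0.0132) that was -0.02 with centring on the median gene and lost its call without AFE replicate 1 (0.26).

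Most regulators of foregut and pharynx rose. Those at 0 in both PSC libraries, NKX2-1 among them, could not be called lower. Of 33 tested, 25 rose and none fell, with a median log2 change of 4.15, or 2.29 with genes at 0 set to their bound; 1 member was called lower with DESeq2's size factors, with centring on the median gene and without PSC replicate 2. HES1, a Notch target, had 138 and 141 CPM in AFE, against 8.28 and 7.43 CPM in PSC (log2 change 4.15, SE 0.09, adjusted p = 1.07e-07), and FOXP4, a forkhead factor of lung and gut, 195 and 202 CPM in AFE, against 25.5 and 26.0 CPM in PSC (log2 change 2.95, SE 0.12, adjusted p = 8.76e-07). IRX3, an Iroquois homeobox gene, had 122 and 128 CPM in AFE, against 0.893 and 1.69 CPM in PSC (log2 change 6.62, SE 0.37, adjusted p = 3.64e-06). SHH, the signal of the foregut epithelium, had 14.1 and 14.2 CPM in AFE, against 0 and 0.178 CPM in PSC. Its ratio of 174 (95% counting interval 40.4 to 2426) rests on few reads in 1 PSC library, and its fitted log2 change was 6.29 without PSC replicate 1 and 12.78 without PSC replicate 2. TBX1, required for the pharyngeal pouches, had 11.5 and 10.9 CPM in AFE, against 0.620 and 0 CPM in PSC, with a log2 change of 5.10 (adjusted p = 0.00156), 12.43 without PSC replicate 1 and 4.17 without PSC replicate 2. PAX9, another pouch gene, had 2.38 and 1.33 CPM in AFE, against 0.273 and 0.238 CPM in PSC (log2 change 2.85, SE 0.42, adjusted p = 0.000636), and its neighbour SLC25A21 on the opposite strand overlaps it with 0.475 times its counts. ISL1 had 2.09 and 3.38 CPM in AFE, against 0.769 and 0.386 CPM in PSC (log2 change 2.23, adjusted p = 0.00464; 2.82 without PSC replicate 1).

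The HOX clusters were at or near 0 in PSC, and their anterior genes rose in AFE. All 11 anterior HOX genes tested rose, under every scaling and with any library left out, and 9 of them were at 0 in both PSC libraries. A gene at 0 in both PSC libraries could not be called lower. The summed level of the anterior genes was 539 and 502 CPM in AFE, against 1.24 and 1.37 CPM in PSC. HOXA2 had 126 and 125 CPM in AFE, against 0.942 and 0.654 CPM in PSC (log2 change 7.28, SE 0.37, adjusted p = 2.59e-06), and HOXB1 24.2 and 21.6 CPM in AFE, against 0 and 0 CPM in PSC. On the per-length scale, HOXB2 averaged 70.3 FPKM, HOXA2 45.8, HOXB1 13.4, HOXB3 11.98 and HOXB4 8.03 FPKM in AFE; of these, only HOXA2 was above 0 in PSC, at 0.305 FPKM.

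Central and posterior HOX genes rose in smaller amounts. Of 21 tested, 14 rose and none fell, and their summed level was 53.6 and 51.9 CPM in AFE, against 1.22 and 2.35 CPM in PSC. Most of those tested, HOXB6, HOXB8 and HOXB9 among them, were at 0 in both PSC libraries and could not be called lower. In AFE, HOXB6 had 7.31 and 7.74 CPM, HOXB8 10.999 and 10.1 CPM and HOXB9 9.64 and 11.3 CPM, at least 23.0-fold, at least 32.3-fold and at least 32.0-fold higher. The HOXB genes from 5 to 9 averaged up to 4.83 FPKM in AFE, below HOXB1 to HOXB4. HOXB13, the last gene of its cluster, had 3.85 and 2.92 CPM in AFE, against 0 and 0.238 CPM in PSC, a ratio of 31.3 (95% counting interval 8.46 to 262); its fitted log2 change was 3.82 without PSC replicate 1 and 10.72 without PSC replicate 2. In the HOXA cluster, HOXA3 averaged 2.62 FPKM in AFE, below HOXA2.

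**Figure D2:**
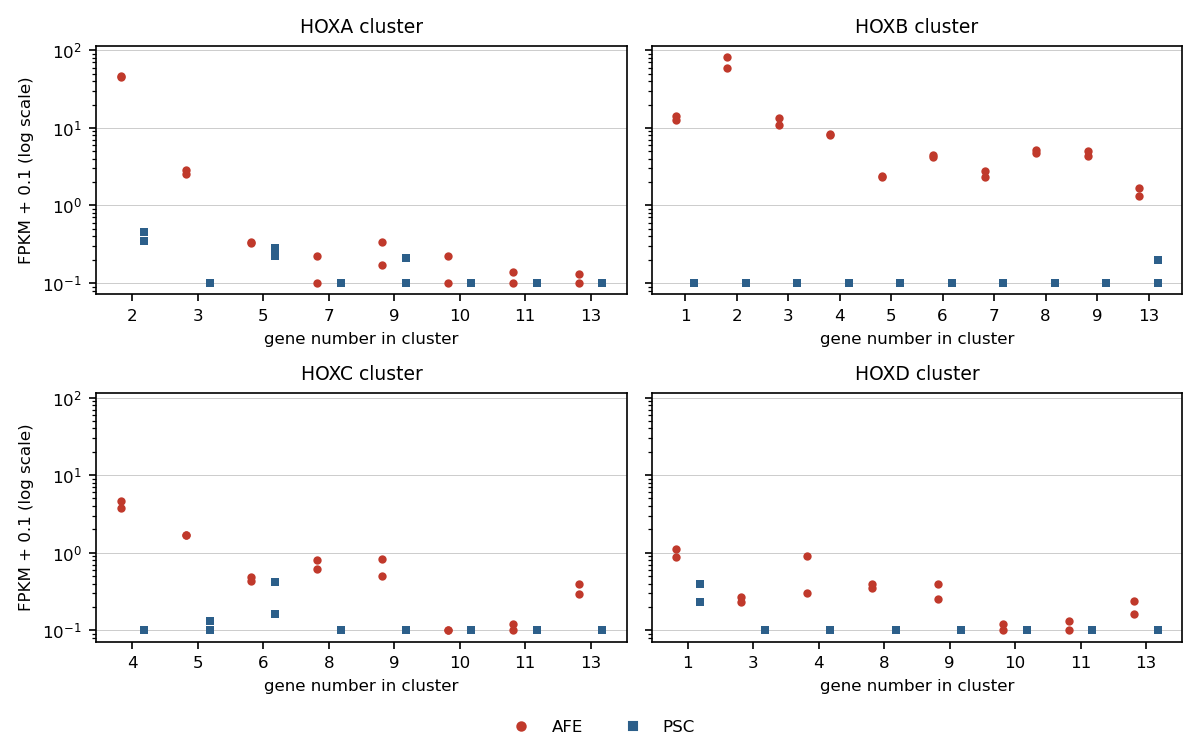
Levels of the HOX genes in each library by their number within the HOXA (from 2 on), HOXB, HOXC and HOXD clusters, as FPKM plus 0.1 on a log axis. Red circles are AFE and blue squares PSC libraries. HOXA2 and HOXB2 average 45.8 and 70.3 FPKM in AFE, the HOXB series continues at lower levels up to HOXB13, and PSC libraries lie at or near 0 throughout.

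Genes of the midgut and hindgut were tested as markers of a more posterior gut. Of 12 tested, 4 rose and 2 fell, where 32.8% of all genes rose and 24.0% fell. The share that rose was close to that of all genes. CDX2, the homeobox gene that specifies intestine, had 21.1 and 26.6 CPM in AFE, against 0 and 0 CPM in PSC, at least 72.9-fold higher, and CDX4, its tail-end relative, was at 0 in AFE, against 17.9 and 17.1 CPM in PSC, at least 88.2-fold lower. CDH17, an intestinal cadherin, had 0.375 and 0.533 CPM in AFE, against 0 and 0 CPM in PSC, at least 1.39-fold higher. VIL1, a protein of microvilli, had 15.2 and 18.8 CPM in AFE, against 6.92 and 5.88 CPM in PSC (log2 change 1.41, SE 0.19, adjusted p = 0.000361). The summed level of the list was 42.2 and 50.4 CPM in AFE, against 38.6 and 35.1 CPM in PSC. The part of such cells in the HOX and CDX2 levels was not tested.

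The retinoic acid pathway rose at nearly every level, from uptake to receptors. Of 18 genes tested, 14 rose and 2 fell, with a median log2 change of 2.23, and 12 rose under either other scaling. STRA6, the membrane receptor that takes up retinol, had 45.1 and 42.7 CPM in AFE, against 0 and 0 CPM in PSC, at least 134-fold higher. DHRS3, a reductase that turns retinal back to retinol and that retinoic acid induces, had 471 and 466 CPM in AFE, against 11.5 and 13.8 CPM in PSC (log2 change 5.22, SE 0.11, adjusted p = 9.07e-08). ALDH1A1, an enzyme that makes retinoic acid, had 44.7 and 45.7 CPM in AFE, against 0.446 and 0.356 CPM in PSC (log2 change 6.80, SE 0.16, adjusted p = 1.17e-07). ALDH1A2, another such enzyme, had 0.587 and 0.467 CPM in AFE, against 0.198 and 0 CPM in PSC, a ratio of 4.88 (95% counting interval 1.15 to 43.8). Its call (adjusted p = 0.0421) ended without AFE replicate 1, AFE replicate 2 or PSC replicate 2, with fitted log2 changes of 2.12, 2.45 and 1.40, and the fitted change was 8.02 without PSC replicate 1.

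Enzymes that destroy retinoic acid rose as well, and so did genes of its receptors. CYP26A1 had 705 and 694 CPM in AFE, against 11.4 and 14.1 CPM in PSC (log2 change 5.78, SE 0.25, adjusted p = 1.32e-06), and CYP26B1 169 and 171 CPM in AFE, against 0.298 and 0 CPM in PSC. The CYP26B1 ratio of 1048 (95% counting interval 359 to 5085) rests on PSC replicate 1 alone, and its fitted log2 change was 16.35 without that library and 9.15 without PSC replicate 2. RARB, a receptor gene that retinoic acid switches on, had 124 and 124 CPM in AFE, against 1.36 and 2.29 CPM in PSC (log2 change 6.10, SE 0.29, adjusted p = 1.81e-06), and RARA 101 and 110.4 CPM in AFE, against 12.1 and 9.45 CPM in PSC (log2 change 3.29, SE 0.13, adjusted p = 9.06e-07). CRABP2, which carries retinoic acid to the nucleus, had 1968 and 1908 CPM in AFE, against 467 and 472 CPM in PSC (log2 change 2.04, SE 0.20, adjusted p = 7.60e-05). RBP4, the secreted retinol carrier, ran the other way, at 1.55 and 0.917 CPM in AFE, against 12.7 and 15.0 CPM in PSC (log2 change -3.49, SE 0.50, adjusted p = 0.000598).

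**Figure D3:**
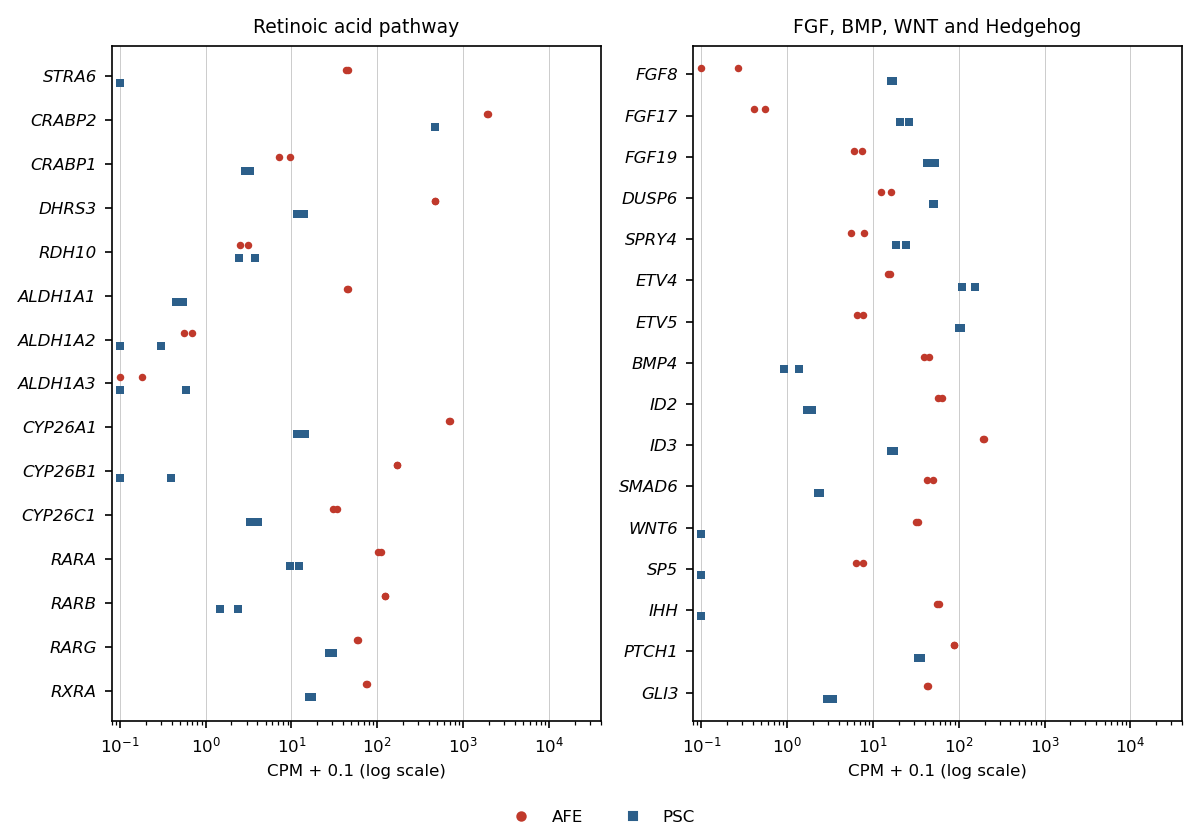
Levels of retinoic acid pathway genes (left) and of FGF, BMP, WNT and Hedgehog genes (right) in each library, as TMM-scaled CPM plus 0.1 on a log axis. Red circles are AFE and blue squares PSC libraries. CYP26A1, DHRS3 and RARB lie far above PSC. The FGF genes and targets shown lie below, while the BMP, WNT and Hedgehog genes shown lie above. They are a choice from each list. Of members not shown, GLI1, GLI2, HHIP, BMP6 and SFRP1 were among those called lower, and FGF2, FGF9 and FGF10 among those called higher.

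Hedgehog genes moved unevenly. Of 14 tested, 7 rose and 3 fell, where 32.8% of all genes rose and 24.0% fell. The ligand IHH had 55.2 and 58.6 CPM in AFE, against 0 and 0 CPM in PSC, at least 174-fold higher, and it averaged 44.7 CPM in DE. PTCH1, the receptor and a target of the pathway, had 88.1 and 86.9 CPM in AFE, against 33.7 and 35.9 CPM in PSC (log2 change 1.33, SE 0.09, adjusted p = 8.19e-06), and GLI3, mainly a repressor, 42.1 and 43.9 CPM in AFE, against 2.83 and 3.36 CPM in PSC (log2 change 3.80, SE 0.20, adjusted p = 2.72e-06). The activator GLI1 fell to 3.75 and 3.65 CPM in AFE, against 13.7 and 12.9 CPM in PSC (log2 change -1.85, SE 0.26, adjusted p = 0.000539). Its relative GLI2 fell to 2.87 and 3.57 CPM in AFE, against 17.2 and 18.3 CPM in PSC (log2 change -2.46, SE 0.27, adjusted p = 0.000125). HHIP, a target that binds Hedgehog ligands, had 0.571 and 0.200 CPM in AFE, against 51.3 and 52.7 CPM in PSC, a log2 change of -7.06 (adjusted p = 2.02e-06) and -8.01 without AFE replicate 1.

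BMP and WNT genes were mostly higher. Of 25 BMP genes tested, 17 rose and 3 fell (6 fell under either other scaling and 5 without PSC replicate 2), with a median log2 change of 2.19. The ligand BMP4 had 44.8 and 39.7 CPM in AFE, against 1.29 and 0.832 CPM in PSC (log2 change 5.29, SE 0.27, adjusted p = 2.39e-06). ID2 and ID3, BMP responders that block differentiation factors, rose as well (adjusted p = 1.17e-07 and 1.08e-07). ID2 had 56.7 and 64.1 CPM in AFE, against 1.59 and 1.87 CPM in PSC. ID3 had 192 and 196 CPM in AFE, against 17.4 and 16.0 CPM in PSC. SMAD6, the inhibitory SMAD, had 50.2 and 42.8 CPM in AFE, against 2.21 and 2.35 CPM in PSC (log2 change 4.35, SE 0.15, adjusted p = 4.22e-07). Of 27 WNT genes tested, 17 rose and 4 fell, with a median of 1.16. The ligand WNT6 had 31.3 and 33.5 CPM in AFE, against 0 and 0 CPM in PSC, at least 99.1-fold higher. NOTUM, a secreted WNT inhibitor and target, had 19.3 and 15.4 CPM in AFE, against 0.719 and 0.386 CPM in PSC (log2 change 4.94, SE 0.31, adjusted p = 6.37e-06), while AXIN2, another target, had 14.6 and 14.7 CPM in AFE, against 13.7 and 11.6 CPM in PSC and was not called (adjusted p = 0.212). The extracellular WNT inhibitor SFRP1 fell to 26.6 and 24.2 CPM in AFE, against 105 and 108 CPM in PSC (log2 change -2.07, SE 0.09, adjusted p = 1.04e-06).

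Epithelial genes changed in both directions. Of 32 epithelial genes tested, 19 rose and 6 fell (10 fell with centring on the median gene). ELF3, an epithelial ETS factor, had 719 and 748 CPM in AFE, against 1.39 and 2.61 CPM in PSC (log2 change 8.54, SE 0.24, adjusted p = 2.13e-07). CLDN4, a claudin that seals tight junctions, had 902 and 948 CPM in AFE, against 52.1 and 50.4 CPM in PSC (log2 change 4.17, SE 0.06, adjusted p = 2.72e-08). CLDN3, another claudin, had 402 and 432 CPM in AFE, against 11.4 and 11.1 CPM in PSC (log2 change 5.21, SE 0.13, adjusted p = 1.30e-07). KRT8, a keratin of simple epithelia, had 14129.7 and 14653 CPM in AFE, against 1917 and 1774 CPM in PSC (log2 change 2.96, SE 0.06, adjusted p = 5.72e-08). The keratin KRT19 had 5001 and 5225 CPM in AFE, against 202 and 187 CPM in PSC (log2 change 4.72, SE 0.07, adjusted p = 2.72e-08). CDH1, the adherens junction cadherin, fell to 393 and 383 CPM in AFE, against 676 and 688 CPM in PSC (log2 change -0.81, SE 0.05, adjusted p = 8.34e-06).

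Basement membrane genes rose together. All 22 tested were called higher, 20 of them with centring on the median gene, and none was called lower; the median log2 change was 2.34. LAMA5, a laminin chain of mature epithelial basement membranes, had 830.3 and 873 CPM in AFE, against 44.4 and 51.5 CPM in PSC (log2 change 4.15, SE 0.09, adjusted p = 1.07e-07). HSPG2, the proteoglycan perlecan, had 530.4 and 548 CPM in AFE, against 17.4 and 10.01 CPM in PSC, and FN1, fibronectin, 1470.0 and 1458 CPM in AFE, against 33.2 and 30.2 CPM in PSC (adjusted p = 1.55e-06 and 2.25e-08).

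Markers of other cell types moved with these groups. Of 26 mesenchyme markers tested, 21 rose and 3 fell, and no member was at 0 in both AFE libraries. Their summed level was 981 and 1006 CPM in AFE, against 929 and 952 CPM in PSC. VIM, which fell, made up 808 and 836 CPM of the PSC sums, so the near equal sums do not describe the other members. POSTN, a matrix protein of fibroblasts, had 27.4 and 28.2 CPM in AFE, against 0 and 0 CPM in PSC, at least 84.9-fold higher, and the fibrillar collagen COL3A1 144 and 146 CPM in AFE, against 0 and 0.238 CPM in PSC. The COL3A1 ratio of 1339 (95% counting interval 371 to 11064) rests on PSC replicate 2 alone, with a fitted log2 change of 9.24 without PSC replicate 1 and 16.14 without PSC replicate 2. VIM, the mesenchymal intermediate filament, fell to 199 and 202 CPM in AFE, against 808 and 836 CPM in PSC (log2 change -2.03, SE 0.09, adjusted p = 1.62e-06). Mesenchyme markers at 0 in both PSC libraries, POSTN among them, could not be called lower. The part of mesenchyme in the rise of matrix genes was not tested.

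Heart markers rose in the main. Among vessel and blood markers more rose than fell, though their sums were similar in both stages. Of 14 heart and lateral mesoderm genes tested, 8 rose and 1 fell; their summed level was 246 and 259 CPM in AFE, against 11.6 and 11.5 CPM in PSC. Most of that was the myosin MYH7, at 193 and 200.3 CPM in AFE, against 0.546 and 0.416 CPM in PSC (log2 change 8.66, SE 0.24, adjusted p = 2.13e-07), with MYH6 at 44.6 and 50.0 CPM in AFE, against 1.26 and 1.01 CPM in PSC. TNNT2, cardiac troponin T, had 0 and 0.483 CPM in AFE, against 0.347 and 0 CPM in PSC and was not called (adjusted p = 0.864). NPPA, the atrial natriuretic peptide gene, and BMP10 were at 0 in both stages. ACTC1, cardiac actin, fell to 0.669 and 0.433 CPM in AFE, against 7.91 and 9.45 CPM in PSC (log2 change -3.97, SE 0.46, adjusted p = 0.000171). Of 16 endothelial and blood markers, 9 rose and 2 fell (1 without either AFE replicate or PSC replicate 1, and 5 with centring on the median gene), and the sums of 67.5 and 76.4 CPM in AFE, against 67.8 and 66.6 CPM in PSC, were close. FLT1, which fell, made up 33.01 and 35.56 CPM of these PSC sums, and 8.96 and 10.02 CPM of the AFE sums. The close sums therefore do not describe the other members. CDH5, which defines endothelium, had 2.02 and 2.08 CPM in AFE, against 0 and 0 CPM in PSC, and PTPRC, the pan-leukocyte marker, was at 0 in AFE. Members of both lists at 0 in both PSC libraries, such as TBX5 and CDH5, could not be called lower. The part of heart, vessel and blood cells in the results was not tested.

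Extraembryonic markers share many members with the endoderm lists. Of 17 genes of primitive and visceral endoderm, 14 rose and none fell. Those at 0 in PSC, such as IHH, could not be called lower. The list's sums were 1438 and 1460.3 CPM in AFE, against 252 and 248 CPM in PSC. The endocytic receptor gene CUBN was at 0 in both stages. APOA1, an apolipoprotein, had 256 and 272 CPM in AFE, against 31.2 and 28.5 CPM in PSC (log2 change 3.14, SE 0.07, adjusted p = 9.07e-08). Of 12 trophoblast markers, 8 rose and 2 fell, with sums of 301 and 328 CPM in AFE, against 117 and 119.7 CPM in PSC; EOMES was at 0 in AFE. GATA3 had 74.0 and 76.6 CPM in AFE, against 0.0992 and 0.327 CPM in PSC, with a log2 change of 8.52 (adjusted p = 3.77e-07), 7.84 without PSC replicate 1 and 9.54 without PSC replicate 2. KRT7 had 60.8 and 65.2 CPM in AFE, against 19.5 and 19.5 CPM in PSC (log2 change 1.69, SE 0.10, adjusted p = 4.45e-06). Of 23 plasma protein and lipid carrier genes, 13 rose and 1 fell, but ALB and TTR were not called, and the list's sum of 1941 and 2077 CPM in AFE, against 569.8 and 634 CPM in PSC, came mainly from APOE at 1483 and 1594 CPM in AFE, against 519 and 584 CPM in PSC (log2 change 1.48, SE 0.07, adjusted p = 2.01e-06). Most of these 23 genes, ALB and TTR among them, were at 0 in both PSC libraries and could not be called lower. The part of extraembryonic cells in the results was not tested.

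**Figure D4:**
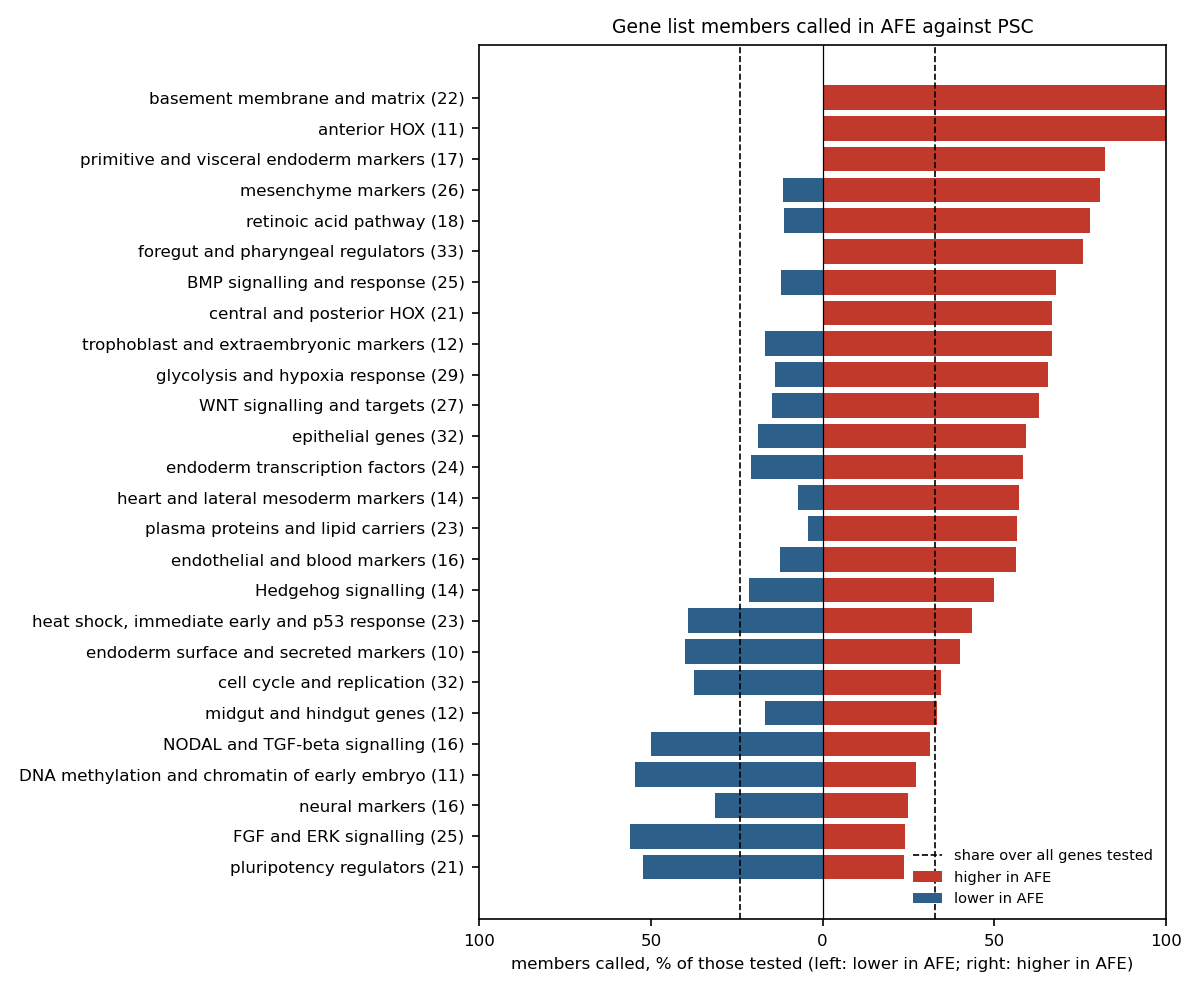
Share of tested members of each of 26 gene lists that was called higher (right, red) or lower (left, blue) in AFE against PSC, as percent, with the number tested in brackets. Dashed lines mark the shares over all genes tested, 32.8% higher and 24.0% lower. Basement membrane and anterior HOX genes reach 100% higher, and pluripotency and FGF genes lean to the lower side.

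Cell cycle genes split. Of 32 tested, 11 rose and 12 fell (19 fell with centring on the median gene). Over all genes 32.8% rose and 24.0% fell, so the share that rose was close to that of all genes. CCNB1, the mitotic cyclin, had 101 and 106 CPM in AFE, against 284 and 286 CPM in PSC (log2 change -1.46, SE 0.07, adjusted p = 2.01e-06), and PCNA, the replication clamp, 96.3 and 94.9 CPM in AFE, against 267 and 299 CPM in PSC (log2 change -1.57, SE 0.10, adjusted p = 5.79e-06). CDKN1A, an inhibitor of cyclin-dependent kinases, had 122 and 118 CPM in AFE, against 12.1 and 12.2 CPM in PSC (log2 change 3.30, SE 0.10, adjusted p = 2.87e-07). CDKN1C, another such inhibitor, had 89.0 and 77.9 CPM in AFE, against 7.39 and 10.4 CPM in PSC (log2 change 3.23, SE 0.17, adjusted p = 2.70e-06). CCND2, a cyclin of G1 phase, had 33.8 and 38.1 CPM in AFE, against 4.12 and 3.62 CPM in PSC (log2 change 3.21, SE 0.16, adjusted p = 2.36e-06). The 11 that rose also included E2F1, PLK1, CDT1 and TYMS, and the 12 that fell also included CDK1, MCM2 and AURKB. TOP2A, CCNA2, MYBL2, BUB1 and MCM3 were among those not called.

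Glycolysis and stress genes also changed. Of 29 glycolysis and hypoxia genes tested, 19 rose and 4 fell, with 14 higher and 6 lower when centred on the median gene and 2 lower without AFE replicate 2. VEGFA, a growth factor of blood vessels, had 49.2 and 47.3 CPM in AFE, against 3.12 and 3.00 CPM in PSC (log2 change 3.97, SE 0.09, adjusted p = 1.08e-07), and the glucose transporter SLC2A1 429 and 415 CPM in AFE, against 72.7 and 64.3 CPM in PSC (log2 change 2.62, SE 0.09, adjusted p = 5.00e-07). GAPDH, often used as a reference gene, had 7915 and 7916 CPM in AFE, against 7392 and 7024 CPM in PSC (adjusted p = 0.303). Of 23 heat shock, immediate early and p53 response genes, 10 rose and 9 fell, where 32.8% of all genes rose and 24.0% fell. The small heat shock protein HSPB1 rose to 1112 and 1153 CPM in AFE, against 37.3 and 39.9 CPM in PSC, while the chaperone HSPA8 fell to 1135 and 1137 CPM in AFE, against 5045 and 5526 CPM in PSC (adjusted p = 8.49e-08 and 2.70e-06). FOSB, an immediate early gene, had 0.473 and 0.650 CPM in AFE, against 43.0 and 65.4 CPM in PSC (log2 change -6.59, SE 0.35, adjusted p = 3.08e-06). The labels give a minimum for RNA integrity and no value per library, and the part of RNA quality in these genes was not tested.

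Among the largest rises by fitted log2 change were also OSR1, SP140, C6 and KCNE1, all at 0 in both PSC libraries. Ranking by the fit favours genes at 0 in a stage. MYH7, above 0 in PSC and left out by the rule, was 403-fold higher by the fit. OSR1, a zinc finger factor of early mesoderm and foregut, had 291 and 304 CPM in AFE, at least 910.0-fold higher, and was 0.121 and 0 CPM in DE. SP140, a chromatin reader, had 98.1 and 97.4 CPM in AFE and C6, a complement protein, 46.3 and 40.3 CPM. KCNE1, a potassium channel subunit, had 26.2 and 27.1 CPM. Their bounds were at least 299-fold, at least 132-fold and at least 81.5-fold higher.

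A small set of genes left its starting level and came back to within 2-fold of it. A return was counted when a gene changed by 2-fold or more and was called at both steps in opposite directions, with the 95% interval of its net change within 2-fold. Of the tested genes, 336 (1.74%) did so. Of 934 genes that rose and then fell, 198 returned, while 322 stayed at least 2-fold above and 64 fell at least 2-fold below the start, each called. Of 465 that fell and then rose, 138 returned, while 73 stayed at least 2-fold below and 60 rose at least 2-fold above the start. Without AFE replicate 2 the second number of returns was 91. The rest of the 934 and of the 465 met none of these outcomes. Of the returns, 54 by rise then fall and 28 by fall then rise still had a called net change. A return therefore means a net change within 2-fold, not the absence of one. The steps share the DE libraries, and the return rule itself fixed these counts. As background, DE against PSC called 53.8% of all genes, 30.8% higher and 23.0% lower (22.8% and 11.6% by 2-fold or more). AFE against DE called 35.3%, 17.9% higher and 17.4% lower (9.26% and 8.35% by 2-fold or more). By comparison, 4767 genes (24.6%) had a net interval within 2-fold whether or not they moved in between.

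Returns were named only where the gene had a symbol and 5 FPKM or more in PSC, DE or AFE. Of these, GPX3, a secreted glutathione peroxidase, showed the widest excursion upward. It had 21.4 and 13.9 CPM in PSC, 775 and 822 CPM in DE, and 15.5 and 17.2 CPM in AFE, a net log2 change of -0.11 (95% interval -0.53 to 0.30); it was called lower without PSC replicate 2 (-0.39, adjusted p = 0.0162) and with centring on the median gene (-0.47, adjusted p = 0.0425). NPC2, a lysosomal cholesterol carrier, had 137 and 142 CPM in PSC, 1930.1 and 1861 CPM in DE, and 180.0 and 187 CPM in AFE. SMAD1, the transducer of BMP signals, averaged 2.72 CPM in PSC, 52.0 CPM in DE and 3.68 CPM in AFE, and FGFR3, a receptor for FGF, 16.4, 183 and 21.2 CPM. The glutamate transporter SLC1A1, the adhesion receptor ADGRB1, the glycine-cleaving enzyme GLDC and FGF11 completed the 8 named rises. NPC2 and FGFR3 had a called net change of 0.39 and 0.37 (adjusted p = 0.000415 and 0.0337). With centring on the median gene the NPC2 change was 0.034 and not called (adjusted p = 0.673). The FGFR3 call ended without AFE replicate 1, AFE replicate 2 or PSC replicate 2 (0.29, 0.45 and 0.23), under either other scaling (0.20 and 0.018), in a fit of the compared libraries alone, in DESeq2's Wald test and in limma at both pseudocounts. SMAD1 was called without AFE replicate 1 (0.68) and ADGRB1 without PSC replicate 1 (0.55).

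SOX2 showed the deepest dip among returns with a symbol and 5 FPKM or more. It had 6.10 and 4.43 CPM in PSC, 0.121 and 0.0701 CPM in DE, and 5.35 and 6.602 CPM in AFE; the level was 55.8-fold lower in DE than in PSC (95% counting interval 17.8 to 303) and 62.4-fold higher in AFE than in DE (20.1 to 337). The AFE and PSC libraries overlapped. LSAMP, a neural adhesion protein, had 38.3 and 39.4 CPM in PSC, 1.71 and 1.94 CPM in DE, and 23.7 and 28.2 CPM in AFE, still lower by a log2 change of -0.58 (adjusted p = 0.00371). MAL2, a protein of apical transport in epithelia, averaged 20.5, 2.73 and 21.8 CPM in PSC, DE and AFE. TAC3, the neuropeptide precursor of neurokinin B, averaged 22.9, 3.37 and 27.9 CPM. The other returns by the rule were RGS2, JPH1, CYFIP2 and BAALC. JPH1 was called lower with centring on the median gene (-0.44), and CYFIP2 lost its called net change of -0.42 without AFE replicate 1 (-0.36).

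**Figure D5:**
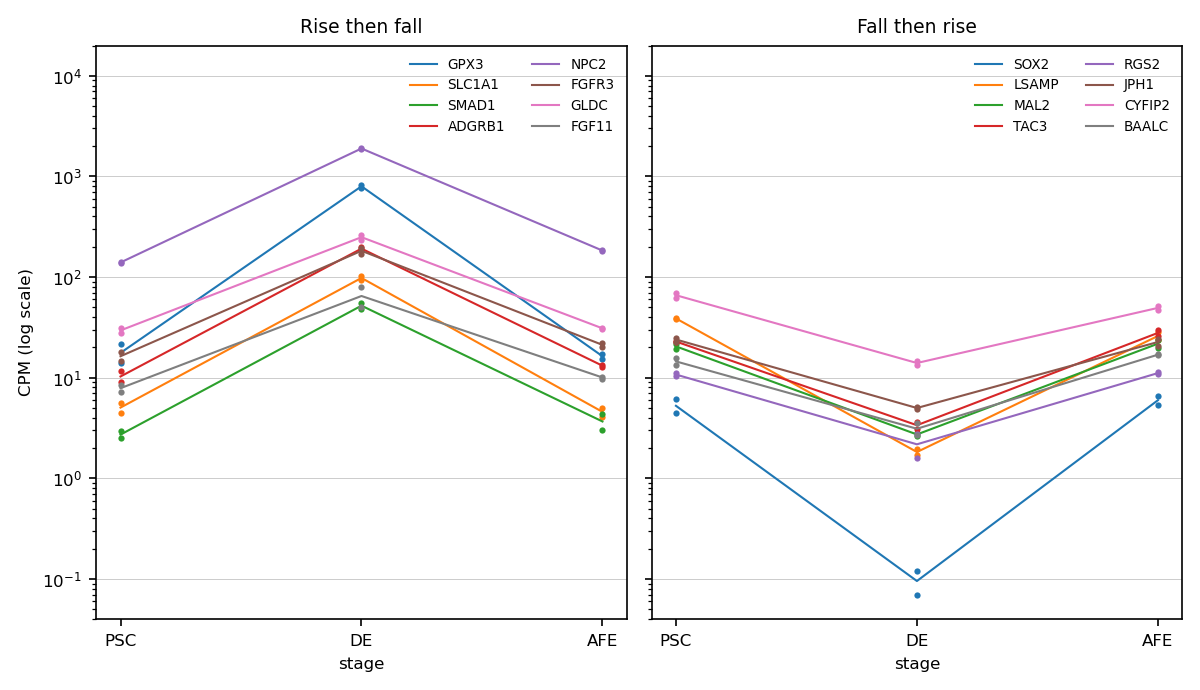
Levels of the 8 genes with the largest rise then fall (left) and the 8 with the largest fall then rise (right) at the stages PSC, DE and AFE, as TMM-scaled CPM on a log axis. Genes were taken from returns with a symbol and 5 FPKM or more in PSC, DE or AFE. Points are libraries and lines join stage means. GPX3 goes up to a mean of 798 CPM in DE and SOX2 down to 0.0956 CPM, and both end near their PSC level.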

How the data were processed

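The authors sequenced strand-marked, poly(A)-selected libraries, per the labels' protocols, and the submitters' processing notes name StringTie 2.1.6, HISAT2 2.2.1, cutadapt 1.9, edgeR and DESeq2. The deposited table holds FPKM values and estimated counts per gene (expected counts), close to 4 per read pair. Counts were tested as deposited with edgeR 4.0.16 (quasi-likelihood, TMM scaling, all 8 libraries sharing 1 spread estimate with 4 residual degrees of freedom, low counts filtered) and p-values were adjusted by Benjamini-Hochberg over all 19346 genes. DESeq2 1.42.0 and limma 3.58.1 gave alternatives. CPM in the text are TMM-scaled. Where both libraries of a stage were at 0, the fold is a bound against 3 read pairs (12 counts) per library, and ratios resting on 1 to 3 read pairs carry counting intervals, which cover counting error only. An exact permutation test of 2 libraries against 2 cannot go below p = 0.333. Within a stage, 97.1% of AFE and 95.3% of PSC genes agreed within 2-fold.

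The members and the 26 gene lists, with 497 tested genes, were chosen with earlier results of these data known. The genes named were a panel of stage markers and up to 4 called members per list (lowest adjusted p first). Added to these were the 10 largest rises and falls by fitted log2 change, among called genes above 5 FPKM with a symbol. The 8 largest returns each way were ranked by the change from PSC to DE. They came from genes with a symbol and 5 FPKM or more in PSC, DE or AFE. Other list members were named after their values were seen. Some members, such as LEFTY1, were not analysed here, and some results are not reported here. Overlapping genes share reads where the counting did not use strand, which is not stated.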

Additional observations from a re-analysis of the deposited data

How the results depend on the processing

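Between 9211 and 10608 genes were called when 1 library was left out, with 258 to 381 returns, of which 91 to 178 fell and then rose. DESeq2's Wald test called 11470 genes, limma on log2(FPKM + 0.1) 11578, counts divided by 4 11178, and a fit of the compared libraries alone 10032. Centring on the median gene gave 3806 genes at least 2-fold lower, and EPCAM reversed to -0.019. A filter of 5 FPKM tested fewer genes, giving 4229 higher, 2835 and 1295 at least 2-fold higher and lower, and 91 returns by fall then rise. On log2(FPKM + 1), 2543 genes were at least 2-fold higher and 1558 lower, as that scale understates changes of low genes. Requiring the net interval within 1.5-fold left 120 returns (72 by rise then fall, 48 by fall then rise), and steps of 4-fold or more left 64 (34 and 30). Other alternatives moved no count of calls over all genes by more than 1.5 times. Of 2034 values of the 146 named genes under the alternatives, 1989 stayed on their side of the threshold in the same direction, 33 lost and 11 gained a call, and 1 reversed. Same-numbered libraries did not deviate together over all genes (correlations -0.0136 to 0.0078). A correlation near 0 cannot exclude a shared culture or batch, so whether these libraries are pairs is not known. The replicate block gave 10203 called genes, 328 returns and 131 called named genes. With it the calls of HHEX and FOXA3 ended (adjusted p = 0.051 and 0.0553), and MYCN was called (0.0338). Calls with few PSC reads are limited by depth, as 3 read pairs come to 0.196 and 0.200 CPM in the AFE libraries, against 0.298 and 0.356 CPM in the PSC libraries. Other causes of these shifts were not tested.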
